A study of Mus musculus with 30 samples.

Results

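Hox genes encode homeodomain transcription factors that give cells their position along the head-to-tail axis of the embryo. They lie in clusters named HoxA to HoxD and are numbered by paralog group, low numbers acting toward the head and high numbers toward the tail. In embryonic stem cells (ESCs) the clusters are held silent, largely by Polycomb complexes, and they open in the primitive streak and its descendants under Wnt, FGF and Cdx signals. The Hox cluster genes described here were chosen by symbol alone, as every array probe annotated to Hox followed by a letter from a to d and a number. The array carried 53 such probes for 39 genes, 11 in HoxA, 10 in HoxB, 9 in HoxC and 9 in HoxD, among 25697 probes and 18097 gene symbols in all, and 10 of the 39 genes had more than 1 probe.

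The samples were 30 Illumina Mouse WG8-V2 BeadChip arrays of 5 clones of the mouse ESC line Ainv15, which expresses the reverse tetracycline transactivator, with 3 arrays for each clone and condition. Bub1b_R (a spindle checkpoint protein), Chek1_R (a DNA damage checkpoint kinase), Ppm1g_R (a protein phosphatase) and Ppp2r1b_R (a scaffold subunit of protein phosphatase 2A) each carried a lentiviral cassette with an shRNA against the named gene and a doxycycline (Dox)-inducible cDNA that the shRNA cannot silence, and Ctrl_R, titled Control_R in the labels, was the control rescue clone. All were grown with LIF, either with Dox at 1 ug/ml (rescued) or after 5 days without it (depleted), both words naming the labelled condition, so the controls share the parent line, the transactivator and the Dox treatment. Each gene is therefore represented here by 1 clone, and the labels do not say which of the clones established for it was used, nor whether the 3 arrays came from separate cultures. The p-values below measure only the spread between these arrays.

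Each array detected 11733 to 13685 probes (detection p under 0.05), and replicate arrays correlated at 0.990 to 0.997. All 11 measured ESC markers were detected on all 3 arrays of every condition, and none of 7 neural progenitor markers was in any. The arrays fell into 2 sets by the lowest signal called detected, 12.9 to 20.9 on the 12 Bub1b_R and Ctrl_R arrays and 27.8 to 58.1 on the other 18 arrays. Comparisons of Chek1_R, Ppm1g_R or Ppp2r1b_R with Ctrl_R at 1 Dox state cross these sets, and there array set and clone cannot be told apart, whereas Dox changes within a clone do not cross them. The Dox change of any of these clones minus that of Ctrl_R draws on both sets. The sample records of Ctrl_R are numbered apart from those of the other clones, and the paper names public array data among its sources. A shared signal level therefore does not place Bub1b_R and Ctrl_R in the same experiment. The check of the targeted genes held for Ppm1g alone, which fell by 1.25 on the log2 scale in Ppm1g_R without Dox (limma, adjusted p = 4.5e-09). Bub1b and Ppp2r1b differed by -0.14 (adjusted p = 0.22) and 0.20 (adjusted p = 0.37) in their own clones. Chek1 went against its label, at 5.31 ± 0.10 (SD, n = 3) with Dox, where no array detected it, and 6.01 ± 0.27 (SD, n = 3) without, so these libraries are called the arrays labelled Chek1_R. Chek1 had 3 probes, 2 of them tested, and these values come from the brightest tested probe alone. The Bub1b and Chek1 rescue cDNAs lack the untranslated end that the shRNA targets, so a probe there would not read the rescue, and probe positions were not used here. That would not account for Chek1 being lower with Dox, whether the Dox labels of this clone are right was not tested, and the sign of each Dox difference on these arrays rests on them.

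The first question was how much of the Hox clusters was detectable. Hox probes were detected less often than the array as a whole. Of the 53 probes, 4 were detected on all 3 arrays of Ctrl_R with Dox and 7 without, and 6 and 10 were in the arrays labelled Chek1_R. In Ppp2r1b_R the counts were 6 with Dox and 9 without, and in both Bub1b_R and Ppm1g_R they were 11 with Dox and 13 without. The share of Hox probes detected on all 3 arrays was thus 7.55% to 24.5% by condition, beside 43.8% to 48.5% of all probes. Counted array by array, the arrays labelled Chek1_R detected 8, 10 and 8 Hox probes with Dox and 16, 17 and 12 without. Bub1b_R detected 16, 14 and 15 with Dox and 18, 22 and 17 without, and in both of these clones every array without Dox exceeded every array with it. Ppm1g_R (15, 14 and 12 with Dox, 17, 17 and 14 without), Ppp2r1b_R (8, 11 and 11, then 10, 11 and 13) and Ctrl_R (6, 8 and 11, then 11, 10 and 9) overlapped between the Dox states.

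**Figure D1:**
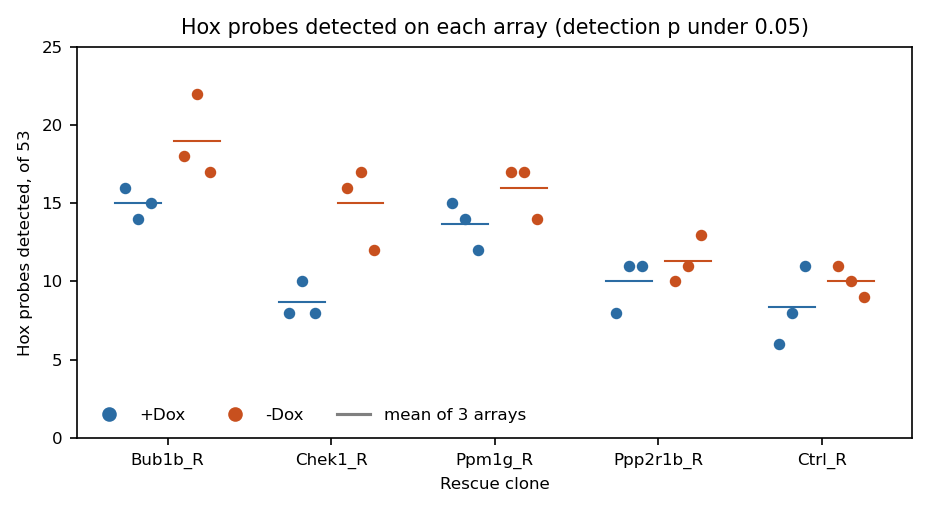
Number of the 53 Hox probes detected (detection p under 0.05, y axis) on each of the 30 arrays, by clone (x axis) and Dox state (blue with Dox, orange without). Each point is 1 array and each line the mean of 3 arrays. The arrays without Dox of Bub1b_R (17 to 22 probes) and of the clone labelled Chek1_R (12 to 17) lie above those with Dox, and the other clones overlap.

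By gene, 16 of the 39 were detected on no array by any probe. These were Hoxa6, Hoxa10 and Hoxa11, then Hoxb1, Hoxb4, Hoxb6, Hoxb8, Hoxb9 and Hoxb13, then Hoxc5, Hoxc11 and Hoxc12, and Hoxd1, Hoxd3, Hoxd12 and Hoxd13. The 26 probes never detected, including spare probes of genes that another probe detected, lay between 4.49 and 5.60 on the log2 intensity scale on every array. Another 16 genes were detected on all 3 arrays of at least 1 condition, and 7 (Hoxa2, Hoxa3, Hoxa4, Hoxb2, Hoxb3, Hoxc8 and Hoxd11) on scattered arrays only. Missing and detected genes were neighbours in the genome. In the RefSeq gene order Hoxc8 lies between Hoxc9 and Hoxc6 and was detected on 1 array, and Hoxa6 lies between Hoxa5 and Hoxa7 and was detected on none. A probe at background says only that this probe gave no signal above the array's background.

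**Figure D2:**
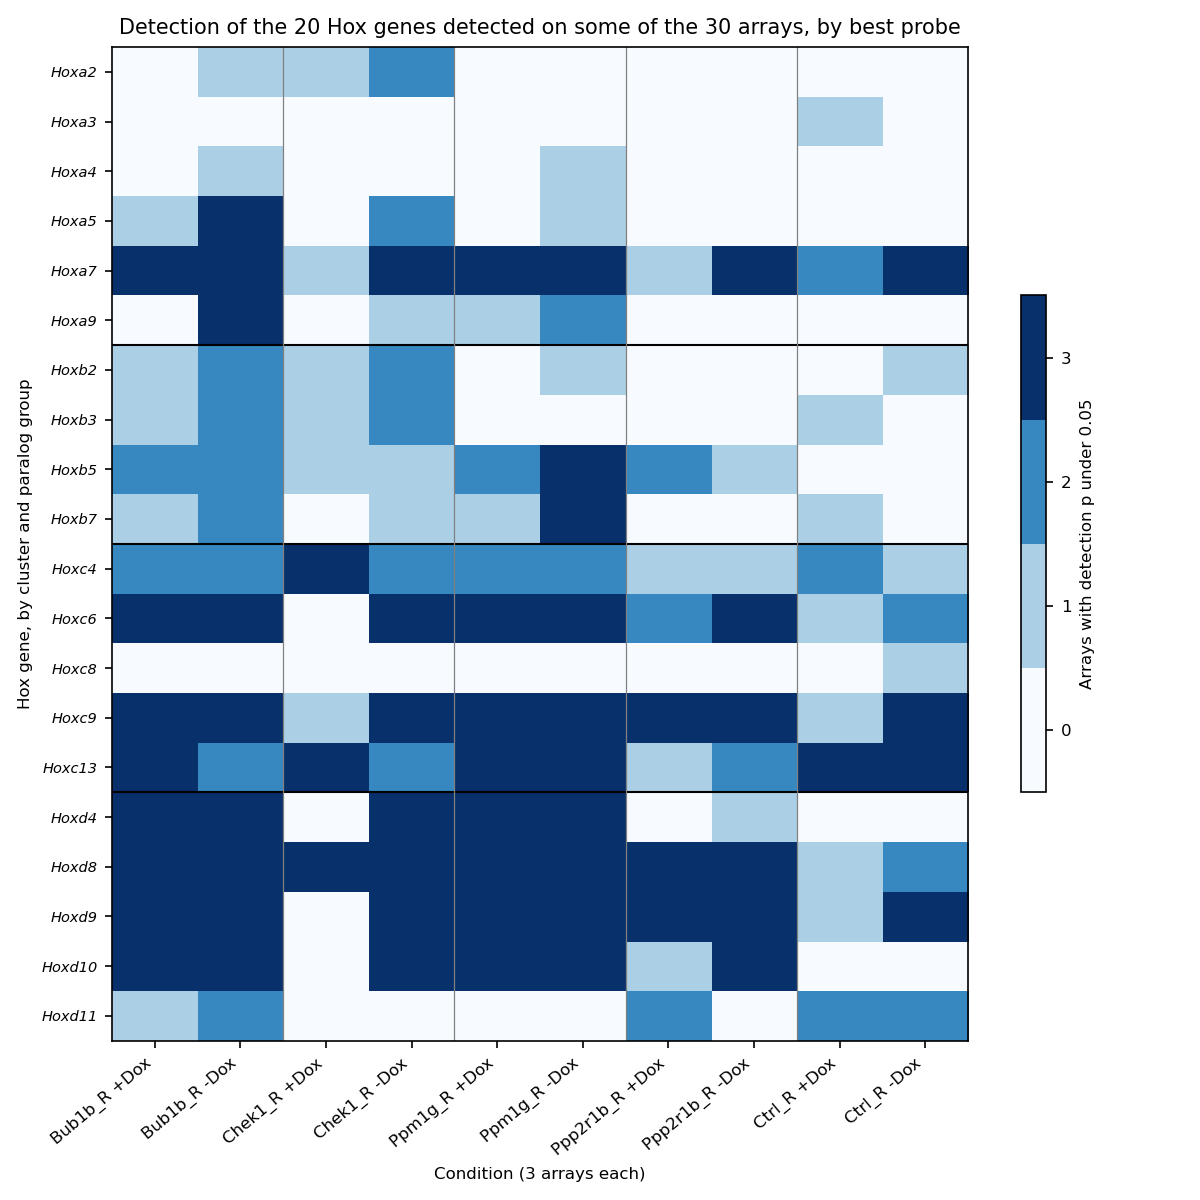
Number of arrays (0 to 3, shade of blue) with detection p under 0.05 for each of the 20 Hox genes detected on some but not all of the 30 arrays (y axis, by cluster and paralog group, using the probe detected on most arrays) in each of the 10 conditions (x axis). The rows of Hoxd4, Hoxd8, Hoxd9 and Hoxd10 are dark in Bub1b_R and Ppm1g_R in both Dox states. In Ctrl_R, Hoxd4 and Hoxd10 are blank and Hoxd8 and Hoxd9 were detected on 1 array with Dox and on 2 and 3 without.

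Dox withdrawal was the comparison designed to ask what loss of each regulator does. The probe read for the targeted gene showed a fall in Ppm1g_R alone, and where these probes lie in their transcripts was not used here. Some Hox genes rose on Dox withdrawal, several of them in more than 1 clone. A probe was called changed at an adjusted p under 0.05 (limma, Benjamini-Hochberg over 15151 probes) and at least 1.5-fold. The calls numbered 6 in Bub1b_R (Hoxa5, Hoxa9, Hoxc9, Hoxd8, Hoxd9 and Hoxd10), beside 2.94% of all tested probes called higher there, and 8 in the arrays labelled Chek1_R (Hoxa5, Hoxa7, Hoxc6, Hoxc9, Hoxd4, Hoxd8, Hoxd9 and Hoxd10), beside 4.49%. Ppm1g_R had 5 (Hoxa7, Hoxc6, Hoxd4, Hoxd9 and Hoxd10), beside 2.3%, and Ppp2r1b_R had 6 (Hoxa7, Hoxc6, Hoxc9, Hoxd4, Hoxd8 and Hoxd9), beside 2.77%. Ctrl_R had 1, Hoxc9, beside 0.706%. No Hox probe was called lower by limma in any clone, nor was any lower at an unadjusted p under 0.05, while 0.396% to 4.77% of all tested probes were called lower. Without background correction 3 probes were called in Bub1b_R and 1 in Ppm1g_R, and without the first depleted array of Ppm1g_R 9 were.

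In all, 9 Hox genes were called higher without Dox in at least 1 of the 4 targeted clones and 7 in at least 3, with Hoxd9 called in all 4. Without the arrays labelled Chek1_R, whose direction rests on doubted labels, 9 were called in at least 1 of the other 3 clones, 7 in at least 2 and Hoxd9 in all 3. The tally without that clone was chosen after seeing the data. How many of all tested probes were called in as many clones was not counted, so these tallies have no background beside them. The test covered the 22 Hox probes detected on at least 3 arrays, and a probe that entered through a group in which it was high was bound to differ, so the calls are best read against all 53 probes. With no detection filter the number called was the same in each clone, 11.3% of Hox probes in Bub1b_R, 15.1% in the arrays labelled Chek1_R, 9.43% in Ppm1g_R, 11.3% in Ppp2r1b_R and 1.89% in Ctrl_R, beside 1.75%, 2.67%, 1.34%, 1.61% and 0.397% of all 25697 probes. Most Hox probes moved little. The median change over the 53 was 0.13, 0.08, 0.09, -0.02 and -0.001 on the log2 scale in the same order of clones, and the median over all probes lay between -0.005 and -0.001.

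**Figure D3:**
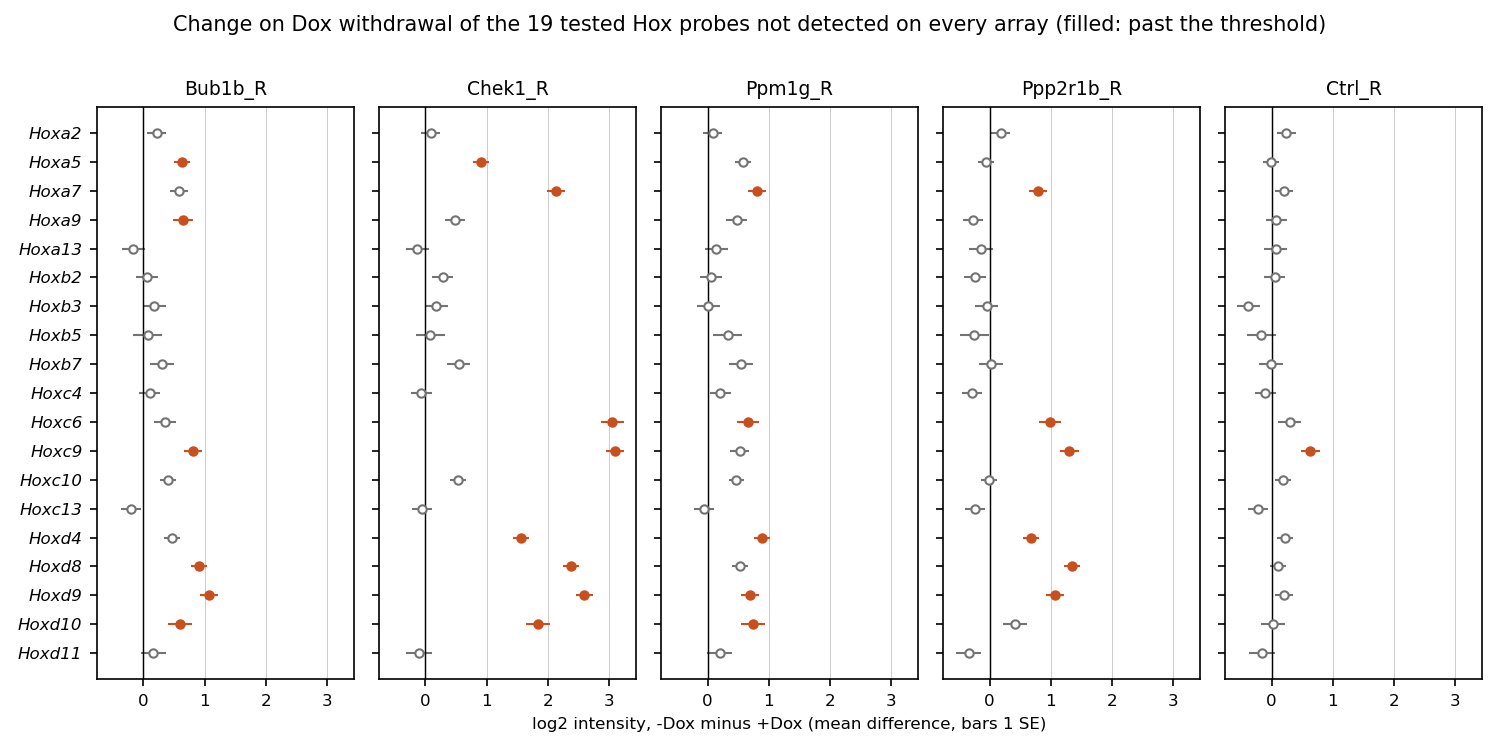
Difference in mean log2 intensity, without Dox minus with Dox (x axis), for the 19 tested Hox probes that were not detected on every array (y axis), with bars of 1 standard error, in 5 panels by clone. Filled points passed the threshold, which none of the 3 probes left out did. The filled points occur at Hoxa5 to Hoxa9, Hoxc6, Hoxc9 and Hoxd4 to Hoxd10, the largest are Hoxc6 and Hoxc9 in the arrays labelled Chek1_R, and Ctrl_R has 1, Hoxc9.

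The calls were unevenly placed among clusters and paralog groups, as counts over all members show. HoxD gave 4 of its 9 genes, HoxA 3 of 11, HoxC 2 of 9 and HoxB none of 10. None of the 8 genes of paralog groups 1 to 3 was called, against 5 of 15 in groups 4 to 8 and 4 of 16 in groups 9 to 13. These counts carry no test, and 4 HoxB genes and 4 genes of groups 1 to 3 were measured well enough to be tested at all. In bulk RNA, more cells with an open cluster and more Hox RNA in each cell cannot be told apart.

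Promoter sequence was available in the RefSeq table used here for 22 of the 39 genes, and for 5 of the 7 called in 3 or 4 targeted clones. Hoxc6 and Hoxc9 are the others. The 250 bases before the annotated start of each of the 5 are shown because these genes were called in the most clones. They are read 5′ to 3′ on the gene's strand in the mouse build GRCm38. Capitals mark matches, on either strand, to TTTATG or TTTATA (sites of the Cdx type) or AGGTGTGA (a T-box site), and TGATNNAT (a composite Pbx-Hox site) was searched as well. They are Hoxa7 (chr6:52218574-52218823, minus strand), Hoxd4 (chr2:74721728-74721977), Hoxd8 (chr2:74704365-74704614), Hoxd9 (chr2:74697513-74697762) and Hoxd10 (chr2:74691641-74691890), the last 4 on the plus strand.
Hoxa7: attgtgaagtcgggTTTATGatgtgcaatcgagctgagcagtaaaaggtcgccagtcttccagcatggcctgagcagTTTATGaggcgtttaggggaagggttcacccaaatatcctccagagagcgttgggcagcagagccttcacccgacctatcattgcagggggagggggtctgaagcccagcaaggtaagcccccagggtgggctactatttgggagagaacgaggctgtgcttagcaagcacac
Hoxd4: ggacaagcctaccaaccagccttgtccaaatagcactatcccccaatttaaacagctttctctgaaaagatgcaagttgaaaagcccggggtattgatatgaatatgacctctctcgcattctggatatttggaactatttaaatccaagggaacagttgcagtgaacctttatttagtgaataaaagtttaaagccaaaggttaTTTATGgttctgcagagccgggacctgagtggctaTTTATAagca
Hoxd8: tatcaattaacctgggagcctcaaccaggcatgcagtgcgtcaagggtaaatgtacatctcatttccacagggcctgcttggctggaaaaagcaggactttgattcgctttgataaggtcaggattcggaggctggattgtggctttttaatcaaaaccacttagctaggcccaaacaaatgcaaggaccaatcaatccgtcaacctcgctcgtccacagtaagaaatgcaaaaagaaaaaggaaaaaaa
Hoxd9: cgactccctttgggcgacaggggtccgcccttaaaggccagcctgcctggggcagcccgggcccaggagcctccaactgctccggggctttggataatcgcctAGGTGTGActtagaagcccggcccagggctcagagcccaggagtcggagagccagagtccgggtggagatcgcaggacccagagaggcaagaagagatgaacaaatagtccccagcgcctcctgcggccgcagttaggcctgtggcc
Hoxd10: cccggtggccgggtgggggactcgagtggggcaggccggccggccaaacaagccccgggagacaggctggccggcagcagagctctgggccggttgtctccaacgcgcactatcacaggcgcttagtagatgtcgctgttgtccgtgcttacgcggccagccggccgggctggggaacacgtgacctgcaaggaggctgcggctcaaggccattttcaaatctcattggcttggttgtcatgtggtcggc

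Hoxa7 held TTTATG at 236 and 173 bases before the start, and Hoxd4 held TTTATG at 45 and TTTATA at 10 bases before it. Hoxd9 held AGGTGTGA at 147 bases before its start. The windows of Hoxd8 and Hoxd10 held none of these letters, and TGATNNAT was in none of the 5. Over all 32851 promoters of the table, windows of the same length held TTTATG in 10.8%, TTTATA in 12.4%, AGGTGTGA in 1.12% and TGATNNAT in 7.68%. The windows also differed in base composition, from 40.4% GC and 3 CpG in Hoxd4 and 44.4% and 6 in Hoxd8 to 65.2% and 13 in Hoxd9 and 65.6% and 20 in Hoxd10, with Hoxa7 between (54.8% and 7), beside medians of 52.4% and 6 over the table. A match is a description of the letters and not of a bound site.

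Within HoxD, Hoxd9, a factor of the limb and lumbar region, was called in all 4 targeted clones. Its log2 intensity was 5.27, 5.36 and 5.25 on the arrays labelled Chek1_R with Dox, where none detected it, and 7.89, 7.80 and 8.00 without Dox, at least 4.97-fold higher (adjusted p = 9.4e-13). Such a bound sets the higher group's mean against the lowest signal detected on each array that missed the probe, or the probe's own value where that is higher. In Bub1b_R it went from 6.73, 6.74 and 6.71 to 7.83, 7.73 and 7.82, a rise of 1.07 ± 0.15 (SE). The arrays without Dox of both clones stood near the same level and above every array with Dox. Ppp2r1b_R went from 6.16, 6.04 and 5.71 to 6.85, 7.20 and 7.10 (1.08 ± 0.15). Ppm1g_R was high from the start, 7.41, 7.50 and 7.39 with Dox and 8.09, 8.20 and 8.09 without, a rise of 0.69 ± 0.15 (adjusted p = 0.0011). Ctrl_R read 5.22, 5.26 and 6.05 with Dox, the last of them alone detected, and 5.83, 5.52 and 5.77 without (adjusted p = 0.47), and its groups overlapped.

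Hoxd8, which lies next to Hoxd9, was detected on all 3 arrays of every condition outside Ctrl_R. It rose from 5.79, 5.60 and 5.67 to 8.04, 8.16 and 7.99 in the arrays labelled Chek1_R (5.20-fold, 2.38 ± 0.13 in log2). In Ppp2r1b_R it rose from 6.00, 6.12 and 6.32 to 7.47, 7.45 and 7.57 (2.55-fold). In Bub1b_R it rose from 6.96, 7.00 and 6.96 to 7.97, 7.87 and 7.82 (1.88-fold). The groups did not overlap in any of the 3 clones. Ppm1g_R again began high, 8.19, 8.17 and 8.29 with Dox against 8.56, 8.77 and 8.93 without, and its difference of 0.54 passed the p threshold but not the fold limit (adjusted p = 0.0041). Ctrl_R stayed low, 5.44, 5.16 and 5.74 with Dox and 5.89, 5.26 and 5.50 without.

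Hoxd10, a factor of hindlimb motor neurons, was undetected in Ctrl_R and detected on every array of Bub1b_R and Ppm1g_R. All 6 Ctrl_R arrays were below detection, 4.94, 4.86 and 4.97 with Dox and 4.79, 4.95 and 5.08 without. The arrays labelled Chek1_R read 4.90, 4.91 and 4.95 with Dox, none detected, and 6.76, 6.79 and 6.74 without, all detected, at least 2.27-fold higher (adjusted p = 7.5e-08). The 3 arrays labelled Chek1_R without Dox stood clear of the 9 others of these clones. Bub1b_R was detected throughout, 7.37, 7.34 and 7.38 with Dox and 7.81, 8.03 and 8.06 without (0.60 ± 0.20, adjusted p = 0.026), close to the fold limit, and that call was lost, at 0.56 to 0.61, without any rescued array or without the second or the third depleted one. So was Ppm1g_R, 6.95, 6.98 and 7.12 and then 7.64, 7.81 and 7.81 (0.74 ± 0.20). Ppp2r1b_R was divided, with 5.23, 5.03 and 6.44 with Dox and 6.10, 5.89 and 5.95 without. The third rescued array of that clone exceeded every depleted one, and the difference of 0.41 did not pass (adjusted p = 0.13).

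In the RefSeq gene order Hoxd4, a hindbrain and neck member, is parted from Hoxd8 by Hoxd3, which no array detected. Hoxd4 was undetected on all Ctrl_R arrays (5.03, 5.23 and 4.90 with Dox, 5.35, 5.05 and 5.41 without). In the arrays labelled Chek1_R it went from 5.13, 4.85 and 4.88 to 6.51, 6.46 and 6.59, at least 1.92-fold higher (adjusted p = 1.3e-09). In Ppm1g_R it went from 6.56, 6.61 and 6.42 to 7.32, 7.61 and 7.35 (0.90 ± 0.13), and those 3 depleted arrays were the highest of the 30. Ppp2r1b_R read 4.91, 4.94 and 5.04 with Dox and 6.02, 5.39 and 5.50 without (adjusted p = 0.00053), but the first depleted array alone was detected, so no fold is given, and without that array the difference was 0.48 and below the fold limit. Bub1b_R moved from 5.47, 5.70 and 5.81 to 6.21, 6.07 and 6.10, a difference of 0.47 below the fold limit (adjusted p = 0.011).

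In HoxC, Hoxc6 and Hoxc9, both factors of the thoracic region, gave the largest differences between measured means on Dox withdrawal of any Hox probe. Hoxc6 read 5.38, 5.49 and 5.55 on the arrays labelled Chek1_R with Dox, none detected, and 8.51, 8.58 and 8.52 without, at least 7.75-fold higher (adjusted p = 2.5e-12). It was already high with Dox in Bub1b_R (8.20, 8.26 and 8.21, then 8.72, 8.59 and 8.43 without, adjusted p = 0.17) and did not pass there. Ppm1g_R was equally high with Dox (8.20, 8.23 and 8.28) and rose to 8.78, 8.98 and 8.94 (1.58-fold). Without Dox the 9 arrays of these 3 clones lay between 8.43 and 8.98, although their levels with Dox differed. Ppp2r1b_R ran lower, 5.87, 6.62 and 6.80 with Dox, the first undetected, and 7.20, 7.46 and 7.59 without (1.98-fold). Ctrl_R was at or near background, 5.24, 5.78 and 5.38 with Dox and 5.99, 5.30 and 5.98 without, and its groups overlapped.

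Hoxc9 rose from 5.10, 5.77 and 5.44 to 8.53, 8.54 and 8.56 in the arrays labelled Chek1_R (8.59-fold, 3.10 ± 0.15, adjusted p = 4.6e-14), where only the second array with Dox detected it. In Ppp2r1b_R it rose from 6.02, 6.48 and 6.31 to 7.77, 7.54 and 7.43 (2.47-fold). In Bub1b_R it rose from 7.76, 7.82 and 7.86 to 8.64, 8.67 and 8.56 (1.76-fold). No array with Dox reached one without in these clones. Ppm1g_R had 8.43, 8.30 and 8.04 with Dox and 8.77, 8.79 and 8.78 without, 0.52 apart and under the fold limit (adjusted p = 0.013). Hoxc9 was also the single Hox call in Ctrl_R, from 5.22, 5.11 and 5.70 to 6.08, 6.09 and 5.76 (0.63 ± 0.15, adjusted p = 0.01), with the third array alone detected with Dox. That call was lost, at 0.51 to 0.58, without the first or second array of either Dox state.

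In HoxA the response lay in the middle of the cluster. Hoxa7, a thoracic member, went from 5.66, 5.50 and 5.56 to 7.82, 7.61 and 7.70 in the arrays labelled Chek1_R (4.40-fold), detected with Dox on the first array alone. In Ppm1g_R it went from 6.97, 7.06 and 7.06 to 7.70, 7.75 and 8.07 (1.76-fold). In Ppp2r1b_R it went from 5.49, 5.75 and 5.41 to 6.59, 6.19 and 6.24 (1.74-fold), detected with Dox on the second array alone. Again no groups overlapped, and Ppm1g_R was the clone that was high before withdrawal. Bub1b_R, at 7.15, 6.97 and 7.24 and then 7.72, 7.72 and 7.66, was high before it as well, and its difference of 0.58 was just under the fold limit (adjusted p = 0.0058). Ctrl_R read 4.96, 5.60 and 5.79 with Dox and 5.53, 5.84 and 5.58 without, and its groups overlapped.

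Hoxa5 and Hoxa9 stayed near background. Hoxa5, needed for lung and neck development, went in Bub1b_R from 5.31, 5.55 and 5.29 with Dox, the second alone detected, to 6.05, 6.13 and 5.86 without (1.55-fold, adjusted p = 0.00078). That call was lost, at 0.57, without the second depleted array. In the arrays labelled Chek1_R it went from 4.73, 4.65 and 4.97, none detected, to 5.77, 5.82 and 5.46, the third undetected (at least 1.07-fold, adjusted p = 7.2e-06). Ppm1g_R missed the fold limit (0.58, adjusted p = 0.0019), and neither Ppp2r1b_R nor Ctrl_R detected it. Hoxa9, a gene of blood progenitors and the posterior trunk, passed in Bub1b_R alone, from 4.89, 5.42 and 5.11, none detected, to 5.65, 5.67 and 6.04, all detected (at least 1.24-fold, adjusted p = 0.0052). That call was lost, at 0.52, without the first rescued or the third depleted array. Of the other probes of Hoxa9, 1 was detected on a single array, of depleted Bub1b_R, and 1 on none.

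**Figure D4:**
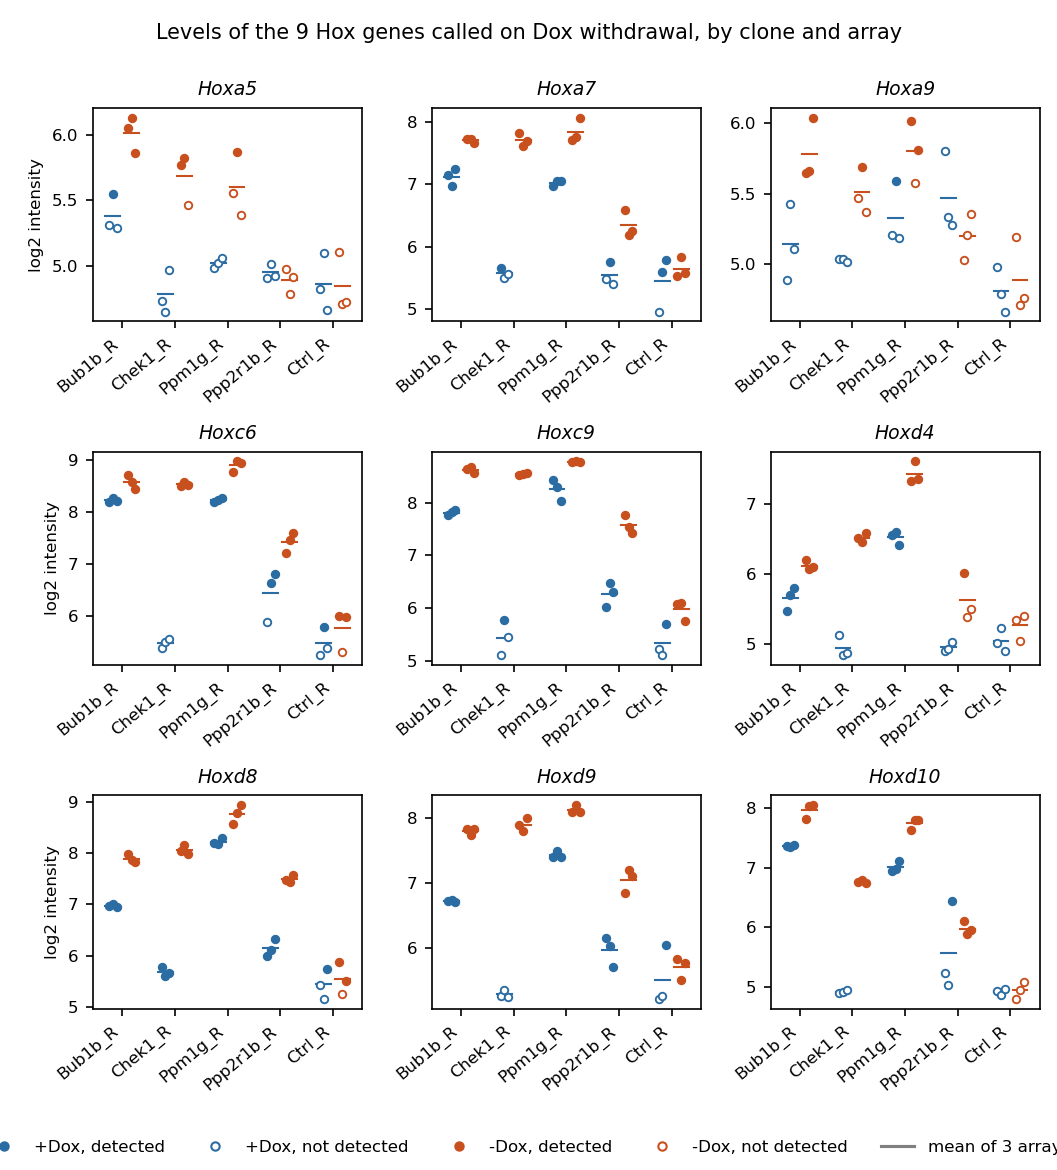
Log2 intensity (y axis, scaled per panel) of the 9 Hox genes called on Dox withdrawal on each of the 30 arrays, by clone (x axis) and Dox state (blue with Dox, orange without). Filled points were detected, open points were not, and lines are means of 3 arrays. The orange points of the arrays labelled Chek1_R stand far above the blue for Hoxc6, Hoxc9, Hoxd8 and Hoxd9, the blue points of Bub1b_R and Ppm1g_R are already raised for most genes, and Ctrl_R stays low in each panel.

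Whether a change was larger than in the control clone was tested as the difference between the 2 changes, each taken against the same 6 Ctrl_R arrays. Except for Bub1b_R, these differences draw on both array sets. The labels do not say whether Ctrl_R was run with the others, so clone and experiment cannot be told apart in any of them. All 8 calls of the arrays labelled Chek1_R passed this test as well, beside 4.37% of all tested probes higher. The difference from the control's change ran from 0.92 for Hoxa5 to 2.77 for Hoxc6. No Ctrl_R array detected Hoxa5, Hoxd4 or Hoxd10, and Hoxa5 was detected on 1 of the 6 Ppm1g_R arrays. Bub1b_R kept 3, beside 2.7%: Hoxd9 (0.87, adjusted p = 0.0063), Hoxd8 (0.81, 0.0047) and Hoxa5 (0.65, 0.021). Ppp2r1b_R kept 2, beside 1.71%: Hoxd8 (1.25, 0.00014) and Hoxd9 (0.88, 0.0096). Ppm1g_R had 2, beside 2.73%: Hoxd4 (0.68, 0.017) and Hoxa5 (0.60, 0.034). The Hoxd4 call was lost, at 0.57 to 0.59, without the second array of depleted Ppm1g_R or of either Ctrl_R state, and was -0.065 without background correction. The Hoxa5 calls of Ppm1g_R (0.47 to 0.62) and Bub1b_R (0.53 to 0.62) were lost without any 1 of 8 and of 6 arrays. In both clones these included the first and the third rescued array, the second depleted array, the second Ctrl_R array with Dox and the second and the third without, and in Ppm1g_R also its second rescued array and the first Ctrl_R array with Dox. Without the third rescued array of Ppp2r1b_R, 4 probes were called there. Against all 53 probes with no filter, the shares were 15.1%, 5.66%, 3.77% and 1.89%, beside 2.46%, 1.53%, 0.868% and 1.52% of all probes, so that of Ppm1g_R was close to its background. The change of Hoxc9 in Ppm1g_R minus that in Ctrl_R was -0.11 (adjusted p = 0.8). Over all 5 clones at once, an F-test found unequal changes for 9 of the 22 tested Hox probes, those of the 9 genes above. The share of all tested probes was itself high, at 30.6%, and no share without the detection filter is given for this test. It was run on the same arrays and differences as the calls, so it is no separate support for them.

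The clones also differed before Dox was withdrawn, in comparisons that share the 3 rescued Ctrl_R arrays. With Dox, 8 Hox probes were higher in Bub1b_R than in Ctrl_R, beside 6.6% of all tested probes, and 8 in Ppm1g_R, beside 14.8%. In Ctrl_R with Dox, Hoxc6, Hoxc9 and Hoxd8 were each detected on 1 of 3 arrays and Hoxd10 on none. The probe of Hoxc6 was 6.77-fold higher in Bub1b_R and 6.83-fold in Ppm1g_R. That of Hoxc9 was 5.54-fold and 7.54-fold higher, and that of Hoxd10 at least 3.57-fold and at least 2.81-fold. The array sets by signal level hold Bub1b_R and Ctrl_R together, so the Bub1b_R values do not cross them and the Ppm1g_R values do. The labels do not say whether the Ctrl_R arrays were run with the others, so clone and experiment cannot be told apart in either comparison. Ppp2r1b_R had 7, beside 14.2%, among them Hoxc6 (1.96-fold) and also Hoxa9 and Hoxb5, which lay at or near background. The arrays labelled Chek1_R had 1, Hoxa2, beside 9.75%. With no filter Bub1b_R had 15.1% of the 53 probes (beside 3.89% of all probes), Ppm1g_R 15.1% (8.8%), Ppp2r1b_R 13.2% (8.57%) and the arrays labelled Chek1_R 1.89% (5.77%). Those of Ppm1g_R and Ppp2r1b_R were thus nearer to their background, and that of the arrays labelled Chek1_R was below it. Hoxa2 read 5.41, 5.62 and 5.37 there against 4.87, 4.68 and 5.06 in Ctrl_R, detected on 1 of these 6 arrays, and the call was lost without the second array of either group.

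Without Dox, 6 Hox genes stood above Ctrl_R in all 4 clones, Hoxa7, Hoxc6, Hoxc9, Hoxd8, Hoxd9 and Hoxd10. All 4 comparisons share the 3 depleted Ctrl_R arrays. The share of all tested probes called in all 4 was not counted. The calls, all higher, numbered 12 in Bub1b_R (beside 10.9% of all tested probes), 12 in the arrays labelled Chek1_R (14.1%), 7 in Ppp2r1b_R (16.6%) and 14 in Ppm1g_R (16.7%). With no filter these were 20.8%, 22.6%, 13.2% and 26.4% of the 53 probes, beside 6.5%, 8.37%, 9.91% and 9.95% of all probes, so the share in Ppp2r1b_R was close to its background. Hoxd8, detected on 2 of the 3 Ctrl_R arrays, was 9.24-fold higher in Ppm1g_R, 5.71-fold in the arrays labelled Chek1_R, 5.06-fold in Bub1b_R and 3.86-fold in Ppp2r1b_R. Hoxd10 was higher by at least 5.90-fold in Bub1b_R, 5.09-fold in Ppm1g_R, 2.56-fold in the arrays labelled Chek1_R and 1.49-fold in Ppp2r1b_R. Ppp2r1b_R had the lowest mean of the 4 clones in each of the 6 genes.

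None of the remaining members was called on Dox withdrawal, although some rose under the fold limit. By the adjusted p alone (limma, under 0.05), 9 Hox probes passed in Bub1b_R, 12 in the arrays labelled Chek1_R and 11 in Ppm1g_R, called ones included. In Ppp2r1b_R 6 passed and in Ctrl_R 1. Against Ctrl_R without Dox, however, Hoxc10 and Hoxb5 were called higher in Bub1b_R, Ppm1g_R and the arrays labelled Chek1_R, and Hoxb7 in Ppm1g_R. With Dox, Hoxc10 was called higher than in Ctrl_R in Bub1b_R, and Hoxb5 in Ppp2r1b_R. The shares of all probes called in these comparisons are given above. Hoxa13, a gene of the distal limb, and Hoxc10, a lumbar gene, were detected on all 30 arrays, with condition means of 6.00 to 6.70 and of 5.86 to 6.65. Their other probes disagreed, with those of Hoxa13 detected on 10 and 0 arrays and that of Hoxc10 on 6. The second Hoxc10 probe was detected on all 3 arrays in depleted Bub1b_R alone. On Dox withdrawal its mean went from 5.63 to 6.03 in Bub1b_R and from 5.18 to 5.65 in Ppm1g_R. In the arrays labelled Chek1_R, none of which detected it, the mean went from 4.675 to 5.205. Ppp2r1b_R had means of 4.87 with Dox and 4.86 without, and Ctrl_R 4.77 and 4.96. Hoxc13, a gene of hair follicles, was detected on 25 arrays, with means of 5.51 ± 0.41 (SD, n = 3) in depleted Bub1b_R to 6.15 ± 0.17 in rescued Ctrl_R. Hoxc4 was detected on 18, with means of 5.40 ± 0.24 in rescued Bub1b_R to 5.80 ± 0.17 in depleted Ppm1g_R. Neither passed in any comparison. Of HoxB, Hoxb5 and Hoxb7 were detected on all 3 arrays in depleted Ppm1g_R alone. Hoxb5 read 5.58, 6.23 and 5.95 there and 5.75, 5.81 and 5.22 with Dox, and the groups overlapped. Hoxb7 read 5.57, 6.31 and 6.10 there and 5.62, 5.37 and 5.33 with Dox, under the fold limit (0.55, adjusted p = 0.04). In the arrays labelled Chek1_R its mean went from 5.00 to 5.54, with 1 depleted array alone detected, and in Bub1b_R from 5.40 to 5.70. Ppp2r1b_R (4.83 with Dox and 4.85 without) and Ctrl_R (5.20 and 5.19) stayed level.

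Genes that act upstream of the Hox clusters rose in the same clones. Of 12 listed upstream genes, not all of them activators (Cyp26a1 is an enzyme that degrades retinoic acid), 9 were tested. Of these 5 rose in Bub1b_R, 5 in the arrays labelled Chek1_R, 3 in Ppp2r1b_R and 4 in Ppm1g_R, while in Ctrl_R 2 rose and 1 fell. Of all tested probes 2.94%, 4.49%, 2.77%, 2.3% and 0.706% were called higher in the same order of clones. The median change of the list was 0.88, 0.82, 0.25, 0.47 and 0.08 in that order, beside -0.02 to 0 for all tested probes. Cdx2, a caudal-type activator of Hox genes, went from 5.56, 6.18 and 6.07 to 9.94, 9.86 and 9.93 in the arrays labelled Chek1_R (15.7-fold), detected on 2 of 3 with Dox. It rose 3.33-fold in Bub1b_R, 2.91-fold in Ppp2r1b_R and 2.31-fold in Ppm1g_R, and differed by 0.39 in Ctrl_R (adjusted p = 0.11). With Dox it stood at 9.30 ± 0.15 in Ppm1g_R and 8.55 ± 0.08 in Bub1b_R, beside 5.39 ± 0.28 in Ctrl_R (SD, n = 3).

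T (Brachyury), the mesoderm T-box factor, rose 21.7-fold in the arrays labelled Chek1_R, from 6.60, 6.47 and 6.17 to 10.94, 10.79 and 10.84. It rose 4.96-fold in Bub1b_R, 3.74-fold in Ppp2r1b_R, 2.07-fold in Ppm1g_R and 1.68-fold in Ctrl_R, from 5.41, 5.56 and 6.00 to 6.46, 6.40 and 6.35. Fgf8, a streak and tail-bud growth factor, rose 12.2-fold in the arrays labelled Chek1_R, 3.25-fold in Ppp2r1b_R, 2.66-fold in Bub1b_R and 1.69-fold in Ctrl_R. Wnt3a, a posterior Wnt ligand, rose 2.22-fold in Ppm1g_R, where 1 of 3 arrays with Dox detected it, and 1.84-fold in Bub1b_R, and Cyp26a1, which degrades retinoic acid, rose 2.33-fold in Bub1b_R (also detected on 1 of 3 with Dox), at least 1.33-fold in the arrays labelled Chek1_R and at least 1.20-fold in Ppm1g_R. Of the 9 tested genes that flank the clusters or end them, Evx1 alone changed. Evx1, a homeobox gene beyond Hoxa13, rose 17.2-fold in the arrays labelled Chek1_R, 5.20-fold in Bub1b_R, 3.03-fold in Ppm1g_R and 2.92-fold in Ppp2r1b_R, and differed by -0.29 in Ctrl_R (adjusted p = 0.24). With Dox it was detected on 1 of 3 arrays both in Ppp2r1b_R and in the clone labelled Chek1_R.

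**Figure D5:**
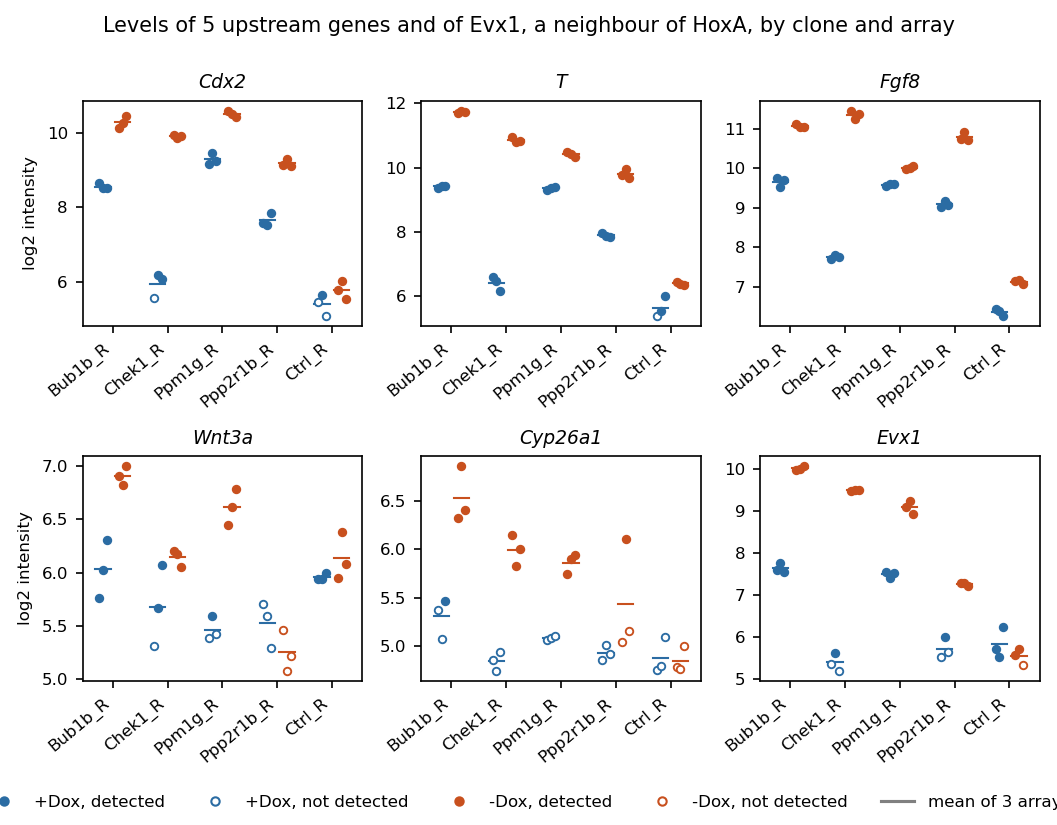
Log2 intensity (y axis, scaled per panel) of Cdx2, T, Fgf8, Wnt3a, Cyp26a1 and Evx1 on each of the 30 arrays, by clone (x axis) and Dox state (blue with Dox, orange without). Filled points were detected, open points were not, and lines are means of 3 arrays. T, Cdx2 and Evx1 rise in all 4 targeted clones without Dox, most in the arrays labelled Chek1_R, and start higher with Dox in Bub1b_R and Ppm1g_R than in Ctrl_R.

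Cofactors and chromatin regulators moved less. Of 9 tested TALE-class partners of Hox proteins, Meis2 rose in the arrays labelled Chek1_R (0.86) and Ppm1g_R (0.66), Meis3 in Bub1b_R (0.60), and Pbx4 fell by 0.87 in the arrays labelled Chek1_R. Among 7 tested retinoic acid response genes, Cyp26a1 and Meis2 rose as above, while Crabp1 (a retinoic acid binding protein) fell by 1.00 in Bub1b_R and by 0.68 in Ppp2r1b_R and Tgm2 fell by 0.69 in Bub1b_R. None of 16 Polycomb, Trithorax and related regulators was called by limma in any clone, although at an unadjusted p under 0.05 between 1 and 3 were higher and between 1 and 5 lower per clone.

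Markers of other cell states moved beside the Hox genes. The summed level of 8 primitive streak markers, a list that shares T, Fgf8 and Evx1 with the genes above, was 9.10 to 9.16 (log2, range of 3 arrays) with Dox and 12.53 to 12.65 without in the arrays labelled Chek1_R, and 8.73 to 8.89 and 9.02 to 9.13 in Ctrl_R. In Bub1b_R it was 10.96 to 11.01 and 12.94 to 12.96, in Ppm1g_R 10.93 to 10.99 and 11.82 to 11.86, and in Ppp2r1b_R 10.08 to 10.17 and 11.57 to 11.73. Of 11 ESC markers, 4 fell in Ppp2r1b_R, 3 in Bub1b_R, 1 in Ppm1g_R, 2 in the arrays labelled Chek1_R and none in Ctrl_R by limma, and none rose. Fgf4 fell by 0.75 to 0.96 in Bub1b_R, Ppm1g_R and the arrays labelled Chek1_R, and Esrrb and Zfp42 fell in Ppp2r1b_R by 0.83 and 0.80. The summed ESC marker level was 14.83 to 14.91 with Dox and 14.26 to 14.28 without in Ppp2r1b_R, and 15.20 to 15.24 and 15.04 to 15.09 in Ctrl_R. Of 6 extraembryonic endoderm markers, 4 were tested and 3 of these rose, in Bub1b_R alone. They were Gata6 (2.45-fold), Sox17 (at least 1.49-fold) and Sox7 (undetected with Dox, and detected on 2 of 3 arrays after its withdrawal), and the summed level there was 8.13 to 8.25 with Dox and 9.08 to 9.09 without. The labels mention fibroblast feeders in maintenance culture, while the methods describe the arrayed cells as feeder-free, and fibroblasts express Hox genes. The summed level of the 13 of 15 fibroblast markers on the array was 10.08 to 10.16 with Dox and 10.31 to 10.40 without in the arrays labelled Chek1_R, 10.32 to 10.44 and 10.55 to 10.58 in Bub1b_R, 9.95 to 10.05 and 10.10 to 10.16 in Ppm1g_R, 10.12 to 10.22 and 10.35 to 10.45 in Ppp2r1b_R, and 10.29 to 10.37 and 10.34 to 10.40 in Ctrl_R. Of the 13, Col1a1, Twist1, Thy1 and Fbln2 were detected on all 30 arrays, Twist2 on 24, Mfap5 on 15, Dcn on 12, Col3a1 on 8, Prrx1 on 6, and Col1a2, Lum, Postn and Tbx5 on 0. Dcn rose in all 4 targeted clones, by 0.68 in Bub1b_R and at least 1.91-fold in the arrays labelled Chek1_R. Col1a1 rose 2.08-fold in those arrays, 2.04-fold in Ppp2r1b_R and 1.88-fold in Ppm1g_R, and Twist2 rose 2.16-fold in the first and 1.73-fold in Bub1b_R. Thy1 fell by 0.81 in the arrays labelled Chek1_R and by 0.61 in Ppm1g_R. The part of these cell states in the Hox levels was not tested.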

How the data were processed

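Total RNA of 30 samples was hybridised to Illumina Mouse WG8-V2 BeadChips. The authors deposited a probe table with an intensity (mean bead signal, linear scale, not normalized) and a detection p-value per array. The submitters' processing notes name lumi, with no version, and settings are not given in the sources used here. In the deposited detection p-value columns, 46 cells of 1 array and 14 of another held dates, a spreadsheet conversion; they were turned back (28 and 6) or given the p of the probe nearest in signal (18 and 8), and none was at a Hox probe.

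The intensities were background-corrected by normexp with the detection p-values, given an offset of 16, quantile-normalized and log2-transformed (neqc, limma 3.58.1, R 4.3.3). Values are relative to background, and the number of arrays limits the precision. The test covered probes detected (p under 0.05) on 3 or more arrays (15151 probes, 22 of Hox genes, 11177 symbols). limma was fitted over all 10 conditions (20 residual and 3.38 prior degrees of freedom), with 17 contrasts and an F-test over the 5 clones, and Benjamini-Hochberg adjustment across all probes within a contrast. A call needed an adjusted p under 0.05 and 1.5-fold. Probes of a Hox gene were kept apart, while each gene of the other lists was read by its brightest probe, a tested one where there was any. Levels and folds are on the log2 scale after the offset, which understates changes of dim probes. The fit was tested on simulated data.

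Hox genes detected on all 3 arrays of a condition or called in a contrast were named with values, the rest by name, and up to 5 called genes of each list, largest change first. The values of 1 gene are not reported here. The members and lists were chosen with earlier results of these data known. Groups came from sample titles, and replicate numbers were not treated as pairs. The alternatives tried were other background, offset, scaling, filter and fold settings, the methods' t-test, a replicate block, only the arrays compared, and leaving out each array.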

Additional observations from a re-analysis of the deposited data

Results flagged for a closer look

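The change of a Hox gene on Dox withdrawal differed from that in Ctrl_R, by a limma test of the difference itself, in 15 cases. These are given as log2 differences of the 2 changes, all positive and all against the same 6 Ctrl_R arrays. Clone and experiment cannot be told apart in them. In the arrays labelled Chek1_R they were 2.77 for Hoxc6, 2.47 for Hoxc9, 2.41 for Hoxd9, 2.28 for Hoxd8, 1.94 for Hoxa7, 1.83 for Hoxd10, 1.35 for Hoxd4 and 0.92 for Hoxa5, with adjusted p-values of 2.9e-09 (Hoxd8) to 0.00085 (Hoxa5). In Bub1b_R they were 0.87 for Hoxd9 (adjusted p = 0.0063), 0.81 for Hoxd8 (0.0047) and 0.65 for Hoxa5 (0.021). In Ppp2r1b_R they were 1.25 for Hoxd8 (adjusted p = 0.00014) and 0.88 for Hoxd9 (0.0096). In Ppm1g_R they were 0.68 for Hoxd4 (adjusted p = 0.017) and 0.60 for Hoxa5 (0.034). Many of these differences rest on signals at background. In the arrays labelled Chek1_R with Dox, Hoxc6, Hoxd9, Hoxd4, Hoxd10 and Hoxa5 were detected on no array and Hoxc9 and Hoxa7 on 1 of 3. No Ctrl_R array detected Hoxd4, Hoxd10 or Hoxa5, so 3 of the 4 groups behind their differences in the arrays labelled Chek1_R had no array that detected them. Hoxa5 in Ppm1g_R rests on 12 arrays of which 1 detected it.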

How the results depend on the processing

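Of the 110 log2 differences past the threshold among Hox probes, the number no longer past it was 15 without background correction (14 in the same direction and 1 reversed), 9 with scaling to 1 median, 34 with an offset of 50, 2 of 110 with no detection filter, 0 of the 91 still tested under the stricter filter (12372 probes, 11 of Hox genes), 9 with only the arrays compared fitted, 15 of the 95 that the methods' t-test could give, 48 with a 2-fold limit, and 54 of 750 when 1 array was left out. The single reversal was Hoxd4 in Ppm1g_R, whose change minus that in Ctrl_R became -0.065 without background correction. The cause was not tested. With the replicate number as a block, all 110 of 110 differences stayed past the threshold and no count of calls moved by over 1.5 times. Same-numbered arrays deviated together at correlations of only -0.084 to 0.131, and differently numbered ones at -0.162 to 0.145. The numbers thus gave no sign of pairing, but whether same-numbered arrays shared a culture is not known.

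Counts of called Hox probes that moved by over 1.5 times were as follows. On Dox withdrawal, Bub1b_R gave 3 without background correction, 3 with an offset of 50 and 1 at 2-fold, Ppm1g_R gave 1 without background correction, 0 at 2-fold and 11 with no fold limit, and Ppp2r1b_R gave 2 by the methods' t-test and 3 at 2-fold. Ctrl_R gave 0 with scaling to 1 median, the offset of 50, only the arrays compared, the t-test or 2-fold. For the change minus that in Ctrl_R, Bub1b_R gave 0 without background correction, 1 with only the arrays compared and 0 at 2-fold, Ppm1g_R gave 0 without background correction, 1 with no filter and 0 at 2-fold, and Ppp2r1b_R gave 1 under each of no background correction, only the arrays compared and 2-fold. Against Ctrl_R without Dox, the arrays labelled Chek1_R gave 7 at 2-fold and Ppm1g_R 8 with an offset of 50 and 8 at 2-fold. Against Ctrl_R with Dox, the arrays labelled Chek1_R gave 3 without background correction, 2 with no fold limit and 0 with median scaling, the offset of 50, the stricter filter or 2-fold. Ppm1g_R gave 13 without background correction, 12 of them higher and 1 lower, and Ppp2r1b_R gave 4 with median scaling, 2 with the offset of 50, 2 by the t-test and 1 at 2-fold. Median scaling moved the median of all probes by -0.18 (without Dox) and -0.18 (with Dox) between Ppp2r1b_R and Ctrl_R and by 0.10 between Bub1b_R and Ctrl_R without Dox.

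Leaving out 1 array at a time gave, on Dox withdrawal, 4 to 6 calls in Bub1b_R, 8 to 10 in the arrays labelled Chek1_R, 6 to 9 in Ppm1g_R, 5 to 7 in Ppp2r1b_R and 0 to 1 in Ctrl_R. For the change minus that in Ctrl_R it gave 2 to 4, 8 to 9, 0 to 3 and 2 to 4 in the 4 targeted clones in that order, against Ctrl_R without Dox 11 to 13, 9 to 13, 13 to 15 and 6 to 7, against Ctrl_R with Dox 7 to 9, 0 to 2, 8 to 11 and 5 to 8, and by the F-test 8 to 11. The 2 with Dox in the arrays labelled Chek1_R came without the third array of that clone or the first Ctrl_R array. The number of Hox probes detected on all arrays left in a condition ran from 6 to 7 and 10 to 14 in the arrays labelled Chek1_R with and without Dox, 11 to 13 and 13 to 14 in Ppm1g_R, 6 to 9 and 9 to 11 in Ppp2r1b_R, 12 to 12 and 14 to 17 in Bub1b_R, and 4 to 6 and 7 to 9 in Ctrl_R.

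At a detection p under 0.01, 2 Hox probes were detected on all 3 arrays labelled Chek1_R with Dox, 1 in Ppp2r1b_R with Dox and 2 in Ctrl_R in either Dox state. Counting probes detected on at least 1 of 3 arrays gave 13 and 19 in the arrays labelled Chek1_R with and without Dox, 20 in Ppm1g_R without, 14 and 14 in Ppp2r1b_R, 20 and 24 in Bub1b_R, and 14 and 13 in Ctrl_R. Most Hox probes lay near background, where an array cannot tell a silent gene from a weak one.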
